A study of Mus musculus with 35 samples.

Results

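Slc12a3, Pvalb, Trpm6, Calb1, Slc8a1, Trpv5, Klk1 and S100g are genes of the distal convoluted tubule and the connecting tubule, the short stretch of the nephron between the thick ascending limb and the collecting duct. These 8 genes were followed in kidneys of diabetic and control mice. Every probe set annotated to 1 of them was taken, which gave 18 of the 45101 probe sets on the array for 7 of the 8 genes. Trpv5 had no probe set under its symbol or gene identifier and was not analysed here. All 7 remaining genes were bright enough to be tested, among 13004 genes tested of 18193 with a probe set naming 1 gene.

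The arrays held RNA of whole kidney from OVE26 diabetic and control mice of the strain FVB/NJ. OVE26 mice carry a calmodulin transgene under an insulin promoter in pancreatic beta cells, so the diabetes comes from loss of insulin and not from a change made in the kidney. Neither the genotype of the controls nor the sex of the animals is given in the sources used here. Kidneys came from mice 2 months old (6 diabetic, 6 control arrays), 4 months old (7 diabetic, 4 control) and 8 months old (6 diabetic, 6 control). Levels are the deposited log2 signals, and differences are diabetic minus control at 1 age with their standard error (SE). A gene was called changed where limma's test gave a Benjamini-Hochberg adjusted p under 0.05 over all genes tested.

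Cells of the distal convoluted tubule reabsorb sodium and chloride through the thiazide-sensitive cotransporter and take up magnesium through a channel in the apical membrane. Further along, late distal convoluted and connecting tubule cells move calcium from the urine to the blood in sequence: a channel lets it in, binding proteins carry it across the cell, and an exchanger and a pump push it out. Vitamin D and parathyroid hormone raise this calcium transport. Connecting tubule cells also make and secrete tissue kallikrein.

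Reference sequence just before the transcription start is shown for 4 of the 5 genes that fell at 8 months (Slc12a3, Pvalb, Trpm6 and Slc8a1), since transcription factors of this segment are among the genes examined. RefSeq's promoter table (build GRCm38.p6) had entries for 7 of the 8 genes, 8 entries in all because Pvalb has a pair of starts. Calb1 is named only. The 250 bases before each start were searched on both strands for 4 motifs. One was GCCNNNGGC, the binding motif of the AP-2 family, to which Tfap2b belongs. The second was TATAAA, the TATA box that can place the start of transcription. The third was TCAAGGTCA, the motif of the estrogen-related receptors, to which Esrrg belongs. The fourth was CACGTG, the E-box that clock factors bind. The table's starts need not be the outermost ones. The start used for Slc12a3 lies 99 bases inside the annotated span of the gene, that of Trpm6 19553 bases, that of Trpv5 501 bases and the downstream start of Pvalb 2163 bases. The upstream start of Pvalb and those of Slc8a1, Klk1 and S100g are at the edge of the gene. The AP-2 motif was found before the start of Slc12a3, before both starts of Pvalb and before the start of Trpm6. The 30 bases around each match follow, 5′ to 3′ on the gene's strand, with the match in capitals.
Slc12a3, chr8:94329125-94329154, plus strand: ctgctcacttGCCATGGGCggtctggacca
Pvalb, upstream start, chr15:78206462-78206491, minus strand: aggggaggggGCCAGGGGCtgggggagcgc
Pvalb, downstream start, chr15:78204382-78204411, minus strand: tcaggagatgGCCCCTGGCggcggggtcct
Trpm6, chr19:18749652-18749681, plus strand: caggggtcagGCCCAGGGCcccaggtggca

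Counted from the starts in the table, the matches began 73 bases before that of Slc12a3, 81 and 164 bases before the upstream and downstream starts of Pvalb, and 68 bases before that of Trpm6. Those of Slc12a3, Trpm6 and the downstream start of Pvalb therefore lie within the annotated gene. The letters GCCNNNGGC stood in 13.7% of all 32851 promoters of the same length, so a match describes these sequences and is not evidence of binding. Slc12a3 also held TATAAA, 32 bases before the start used, and Trpv5 held it 43 bases before the start used, both within the annotated gene. TATAAA stood in 12.4% of all promoters. No entry of Slc8a1, Klk1 or S100g matched either motif, and no member entry matched CACGTG or TCAAGGTCA, which stood in 6.02% and 0.387% of all promoters. To compare an entry with the AP-2 letters and one without, the 250 bases before the upstream start of Pvalb and before the start of Slc8a1 are given whole, again with AP-2 and TATAAA matches in capitals.
Pvalb, chr15:78206401-78206650, minus strand: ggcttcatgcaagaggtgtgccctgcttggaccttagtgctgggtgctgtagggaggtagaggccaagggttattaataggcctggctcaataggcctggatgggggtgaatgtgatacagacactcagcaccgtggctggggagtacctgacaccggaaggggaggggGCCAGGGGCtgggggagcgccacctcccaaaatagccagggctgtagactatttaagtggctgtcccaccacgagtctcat
Slc8a1, chr17:81738388-81738637, minus strand: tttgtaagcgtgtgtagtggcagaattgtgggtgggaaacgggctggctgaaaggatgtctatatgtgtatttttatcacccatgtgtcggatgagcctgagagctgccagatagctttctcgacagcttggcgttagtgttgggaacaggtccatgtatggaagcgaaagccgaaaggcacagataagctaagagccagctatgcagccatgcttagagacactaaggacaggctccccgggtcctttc

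At 8 months 5 of the 7 genes were lower in diabetic kidneys: Pvalb by 2.60-fold, Slc8a1 by 2.08-fold, Slc12a3 by 1.70-fold, Trpm6 by 1.50-fold and Klk1 by 1.20-fold. By the brightest probe set of each of these 5 genes, every diabetic array lay below every control array. Over all genes tested, 6.95% were called lower at 8 months and in 4.28% all diabetic arrays lay below all controls. Calb1 and S100g did not pass the test. At 2 months no member was called, where 2.54% of genes were, and 1 of 7 had an unadjusted p under 0.05, where 15.2% of genes did. At 4 months no member was called either, where 0.969% of genes were, and 2 of 7 had an unadjusted p under 0.05, where 11.4% of genes did. In whole kidney RNA, fewer cells of a type and less RNA per cell cannot be told apart.

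**Figure D1:**
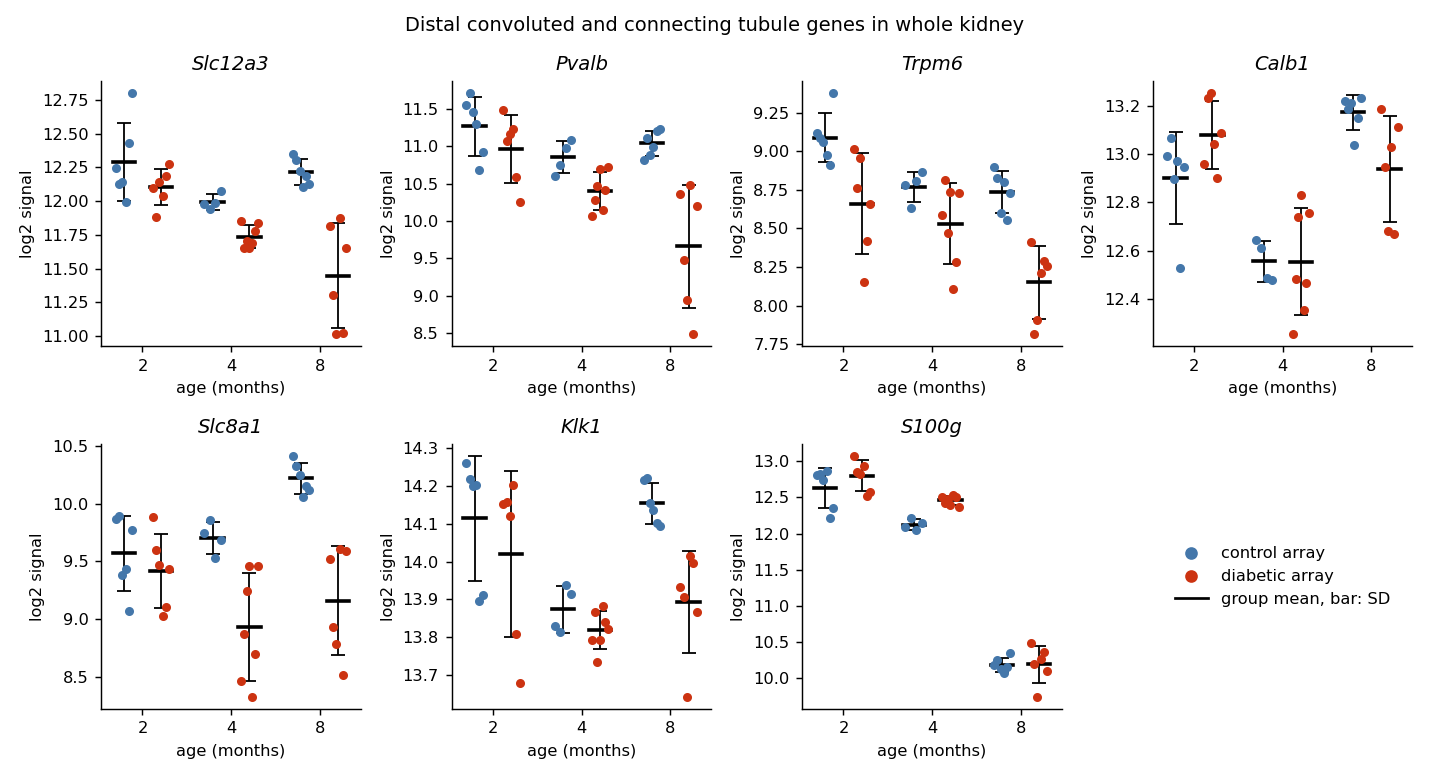
Deposited log2 signal of the 7 genes on each array at 2, 4 and 8 months (x axis), controls and diabetic arrays as separate points, with bars at the group means and whiskers of 1 SD. At 8 months the diabetic points of Slc12a3, Pvalb, Trpm6, Slc8a1 and Klk1 all lie below the control points, while those of Calb1 and S100g overlap with them.

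Arrays of the same age correlated with each other at Pearson's r of 0.969 or more, and no 2 arrays were identical. Array medians ranged over 5.98 to 6.09 in the 2-month set, 5.70 to 5.74 in the 4-month set and 5.96 to 6.01 in the 8-month set, so the 4-month arrays sit on a lower scale and levels were tested only within an age. The median SD within a group was highest in the 2-month set, at 0.191, against 0.120 in the 4-month and 0.141 in the 8-month set. Arrays 5 and 6 of both 2-month groups stood apart from arrays 1 to 4, and values with that split as a term are given where they change a call. No batch was named in the labels. Arntl, a clock gene whose level follows the time of day, ran from 5.31 to 6.77 on the 8-month controls. On 8-month diabetic arrays 1 to 6 it read 6.97, 6.73, 5.65, 5.42, 7.81 and 5.47. Dbp, another clock gene, read 8.25, 8.14, 10.10, 10.51, 7.32 and 10.64 on the same arrays and 9.48 to 10.88 on the controls. At 4 months Arntl read 7.84 and 8.17 on controls 3 and 4 and from 5.54 to 6.21 on the other arrays. At 2 months it read 7.80, 7.88 and 8.28 on diabetic arrays 1, 5 and 6, and 7.66 on control 6. On the other 2-month arrays it ran from 6.52 to 6.82. Fits with the clock genes as a covariate and without 4-month controls 3 and 4 are among the alternatives.

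Slc12a3 encodes the sodium-chloride cotransporter that thiazide diuretics block, the defining transporter of the distal convoluted tubule. At 2 months its control arrays ran from 11.99 to 12.80 with a median of 12.19, and its diabetic arrays from 11.88 to 12.27 with a median of 12.12. The groups overlapped, and the difference of -0.18 ± 0.12 did not pass (adjusted p = 0.497). The highest control, array 6, also stood apart in the 3′ to 5′ log2 ratios of its actin and Gapdh control probe sets, at 2.56 and 0.99 where no other array exceeded 1.35 and 0.15. Without it the difference was -0.08. At 4 months the 4 controls read 11.98, 11.94, 11.98 and 12.08, and the 7 diabetic arrays ran from 11.65 to 11.85 with a median of 11.70. All diabetic arrays were below all controls at that age, as in 2.44% of genes. The mean was lower by 0.26 ± 0.13, but the difference missed the threshold (adjusted p = 0.467). It passed where the 4-month arrays were fitted alone (adjusted p = 0.0311), a fit that was not repeated without 1 array. In the fit over all ages it passed in 0 of the 11 fits without 1 array (between 0.459 and 0.823). At 8 months the controls ran from 12.10 to 12.35 with a median of 12.20, and the diabetic arrays read 11.81, 11.30, 11.01, 11.87, 11.02 and 11.65. Every diabetic kidney was lower, and they spread more widely than the controls, with an SD of 0.386 against 0.098. The mean fell by 0.77 ± 0.12, with an adjusted p of 2e-05.

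A second Slc12a3 probe set, 1446552_at, was dim, with a mean log2 signal of 5.46 over all arrays, just above the filter at 5.27. It did not follow the bright one: its differences were 0.27 ± 0.15, 0.42 ± 0.16 and 0.00 ± 0.15 at 2, 4 and 8 months, and none was called.

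Pvalb encodes parvalbumin, a calcium-binding protein found in the early distal convoluted tubule. At 2 months controls ran from 10.68 to 11.71 (median 11.38) and diabetic arrays from 10.25 to 11.49 (median 11.12). Diabetic arrays 5 and 6, at 10.59 and 10.25, lay below every control and the other 4 within the control range. Controls 5 and 6, at 10.68 and 10.93, were likewise the lowest of their group. The difference was -0.30 ± 0.24 (adjusted p = 0.609). The 4-month controls read 10.61, 10.75, 10.98 and 11.09, and the diabetic arrays ran from 10.06 to 10.72 (median 10.42). The lowest control lay within the diabetic range, and the difference of -0.45 ± 0.26 did not pass (adjusted p = 0.555). At 8 months controls ran from 10.81 to 11.23 (median 11.05), and the diabetic arrays read 10.36, 9.49, 8.94, 10.49, 8.49 and 10.20. The highest diabetic kidney was still below the lowest control, and the lowest stood at -2.55 relative to the control mean. The mean fell by 1.38 ± 0.24, the widest fall of the 7 genes, with an adjusted p of 0.0001.

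Skeletal muscle also makes parvalbumin, so its markers were read beside it. Of 8 muscle markers, 6 were too dim to be tested and the other 2 were not called at any age. Their summed signal at 8 months was 263 to 308 in controls and 234 to 299 in diabetic kidneys.

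Trpm6 encodes the magnesium channel of the apical membrane of the distal convoluted tubule. It was the member nearest to a call at 2 months, where controls ran from 8.91 to 9.38 (median 9.08) and diabetic arrays from 8.15 to 9.02 (median 8.71). Diabetic arrays 1 and 3 lay within the control range and the other 4 below it. The difference of -0.43 ± 0.13 had an adjusted p of 0.0589. Whether same-numbered arrays are paired is not known, and blocking on the replicate number gave an adjusted p of 0.0261. It was 0.0401 with arrays 5 and 6 as a batch term, 0.0488 with a stricter filter on dim genes and 0.00666 with array weights, and it passed when diabetic array 1, 2 or 3 or control 5 was left out (adjusted p between 0.0282 and 0.04996). These were 4 of the 12 fits without 1 array, and in the others the adjusted p reached 0.160. The difference did not pass without control 6, the highest control at 9.38, which stood apart in its 3′ to 5′ ratios. In 4-month kidneys the controls read 8.78, 8.63, 8.81 and 8.86, and the diabetic arrays ran from 8.11 to 8.81 (median 8.59). The difference there was -0.24 ± 0.14 (adjusted p = 0.542), with overlapping groups. At 8 months controls ran from 8.55 to 8.90 (median 8.77), and the diabetic arrays read 8.41, 7.82, 7.91, 8.21, 8.29 and 8.26. All 6 were below the controls, and the mean fell by 0.58 ± 0.13 (adjusted p = 0.00099). The other Trpm6 probe set, 1427642_at, fell too at 8 months, by 0.46 ± 0.08, with differences of -0.02 ± 0.08 and -0.17 ± 0.09 at 2 and 4 months that did not pass.

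Calb1 encodes calbindin-D28k, the larger of the calcium-binding proteins that carry calcium across these cells. At 2 months controls ran from 12.53 to 13.07 (median 12.96) and diabetic arrays from 12.90 to 13.25 (median 13.06), a difference of 0.18 ± 0.10 (adjusted p = 0.399). At 4 months the controls read 12.65, 12.61, 12.49 and 12.48 and the diabetic arrays ran from 12.26 to 12.83 (median 12.48). The 4-month mean was 12.56 in controls and 12.56 in diabetic kidneys, with overlapping ranges and a 95% interval of the difference from -0.22 to 0.22. At 8 months controls ran from 13.04 to 13.23 (median 13.20), and the diabetic arrays read 13.19, 12.95, 12.68, 13.03, 12.67 and 13.11. Diabetic arrays 1 and 6 lay within the control range and the other 4 below it. The difference of -0.23 ± 0.10 did not pass (adjusted p = 0.102), and its 95% interval ran from -0.43 to -0.03. None of the other 3 Calb1 probe sets was called at any age.

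S100g encodes calbindin-D9k, the small vitamin D-dependent calcium-binding protein. At 2 months controls ran from 12.22 to 12.87 (median 12.77) and diabetic arrays from 12.52 to 13.08 (median 12.84), a difference of 0.16 ± 0.11 (adjusted p = 0.494). At 4 months the controls read 12.09, 12.22, 12.04 and 12.14, and the diabetic arrays ran from 12.37 to 12.54 (median 12.47). S100g was the 1 member whose 4-month diabetic arrays all lay above the controls, as they did in 2.37% of genes. The difference of 0.34 ± 0.12 missed the threshold in the fit over all ages (adjusted p = 0.195). It passed where the 4-month arrays were fitted alone (adjusted p = 0.00727), with the 2-month batch term (0.0273) and with array weights (0.00506). These settings were not repeated without 1 array. The main fit over all ages passed in 0 of the 11 fits without 1 array (adjusted p between 0.209 and 0.495). At 8 months controls ran from 10.06 to 10.34 (median 10.16), and the diabetic arrays read 10.49, 10.19, 9.74, 10.25, 10.35 and 10.09. The control and diabetic means were 10.18 and 10.19, with a 95% interval of the difference from -0.21 to 0.22.

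The level of S100g itself differed far more between ages than between groups. Its control mean went from 12.64 in the youngest mice through 12.12 to 10.18 in the oldest, which is 5.48-fold lower at 8 than at 2 months, the 6th largest fall of the 13004 genes. In diabetic kidneys the 8-month level was 6.13-fold lower, the 5th largest fall. Ages may have been hybridised or scaled apart, so this is a description with no test. After quantile normalization over all arrays, added after seeing the data, the level fell by 2.27 in controls and fell by 2.50 in diabetic kidneys on the log2 scale, each the 8th largest fall. The other 6 members moved by between -0.35 and 0.65 in controls from 2 to 8 months, where the median over all genes was -0.14. In diabetic kidneys they moved by between -1.31 (Pvalb) and -0.13 (Klk1), with Slc12a3 at -0.66, where the median over all genes was -0.11.

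Slc8a1 encodes the sodium-calcium exchanger that extrudes calcium across the basolateral membrane. At 2 months controls ran from 9.07 to 9.89 (median 9.60) and diabetic arrays from 9.03 to 9.89 (median 9.45), a difference of -0.15 ± 0.19 (adjusted p = 0.781). Controls of 4 months read 9.74, 9.86, 9.53 and 9.68, and the diabetic arrays ran from 8.33 to 9.46 (median 8.87). Every diabetic array was below every control at 4 months, as in 2.44% of genes. The difference of -0.77 ± 0.21 gave an adjusted p of 0.0642, which became 0.0334 without diabetic array 4 and 0.0322 without diabetic array 7. It also passed with the 2-month batch term (0.0433), a clock covariate (0.0403) and array weights (0.0105). The other fits without 1 array did not pass, with an adjusted p of up to 0.215. At 8 months controls ran from 10.06 to 10.41 (median 10.20), and the diabetic arrays read 9.52, 8.93, 8.79, 9.61, 8.52 and 9.59. All diabetic arrays were again lower, and the mean fell by 1.06 ± 0.19 (adjusted p = 0.00014). Each of the other 3 Slc8a1 probe sets fell at 8 months as well: 1437675_at by 0.90 ± 0.23, 1425817_a_at by 0.43 ± 0.11 and the dim 1420210_at by 0.36 ± 0.10.

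Klk1 encodes tissue kallikrein, a serine protease that connecting tubule cells release into the urine. Its control means were 14.11, 13.87 and 14.15 at 2, 4 and 8 months. At 2 months controls ran from 13.89 to 14.26 and diabetic arrays from 13.68 to 14.20, a difference of -0.09 ± 0.08 (adjusted p = 0.621). The 4-month controls read 13.83, 13.81, 13.94 and 13.91 and the diabetic arrays ran from 13.73 to 13.88, a difference of -0.05 ± 0.09 (adjusted p = 0.902). The groups overlapped at both ages. At 8 months controls ran from 14.09 to 14.22 (median 14.15), and the diabetic arrays read 13.93, 13.91, 13.64, 14.01, 14.00 and 13.87. The groups were apart by a narrow margin, and the fall was 0.26 ± 0.08 (adjusted p = 0.0184). Without diabetic array 3 it was -0.21 and no longer passed (adjusted p = 0.0728). At 8 months 1448107_x_at fell by 0.27 ± 0.07 and 1455977_x_at by 0.22 ± 0.06, while 1460050_x_at, at -0.08 ± 0.09, did not pass. Mouse kallikreins are a family of near-identical genes, so these probe sets may also read other members and their values are uncertain in that respect.

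Of the 11 further probe sets of the 7 genes, 6 were called at 8 months, all lower, where 9.69% of the 34945 probe sets naming 1 gene were called in either direction. They belong to Slc8a1, Klk1 and Trpm6, which also fell by their brightest probe set. Among those called, the groups overlapped in 1437675_at, 1425817_a_at and 1455977_x_at. None of the 11 was called at 2 or 4 months, where 0.836% and 0.372% of probe sets were.

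**Figure D2:**
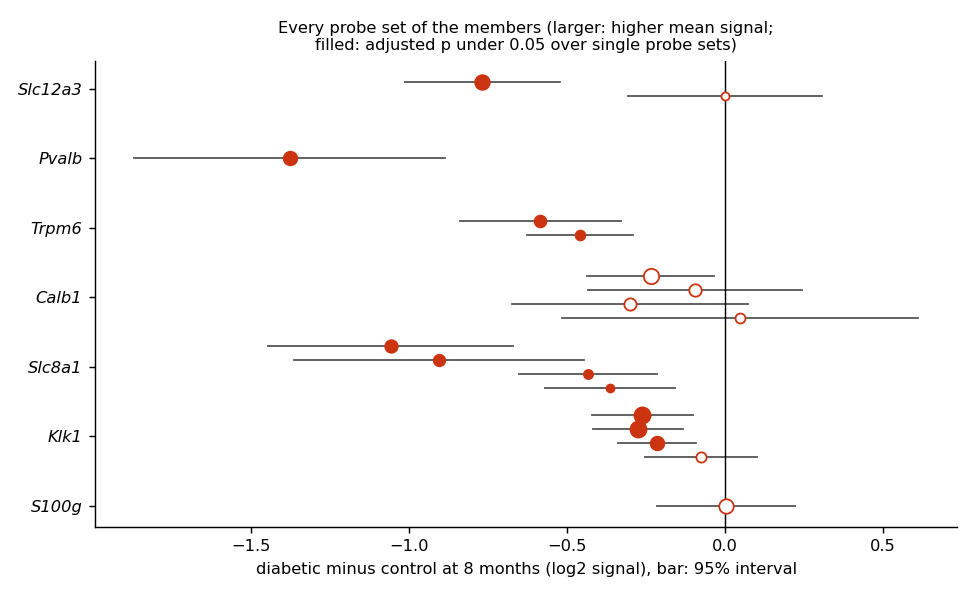
Difference between diabetic and control arrays at 8 months (log2, x axis, bars for 95% intervals) for each of the 18 probe sets, grouped by gene on the y axis, with larger points for brighter probe sets and filled points where the adjusted p was under 0.05. All 4 Slc8a1 and both Trpm6 probe sets lie below 0 and are filled, while the dim Slc12a3 probe set lies at 0.00.

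The differences grew from 2 to 8 months in some genes, and that change was tested itself. The difference at 8 months minus that at 2 months was -0.58 ± 0.17 for Slc12a3 (adjusted p = 0.0468), the 1 member that passed, where 3.89% of genes did. For Slc8a1 it was -0.91 ± 0.27 (adjusted p = 0.0514), for Pvalb -1.07 ± 0.34 (adjusted p = 0.0720) and for Calb1 -0.41 ± 0.14 (adjusted p = 0.0894). These 4 genes lay close to the threshold on either side. Slc12a3 passed in 6 of the 35 fits that left out 1 array, with adjusted p between 0.0097 and 0.1001. The F test over all 3 ages called 0 of 7 members, against 2.5% of genes, and gave 4 of 7 an unadjusted p under 0.05, as it did 14.7% of genes. For Trpm6, whose difference was -0.43, -0.24 and -0.58 at the 3 ages, the F test gave an adjusted p of 0.584.

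**Figure D3:**
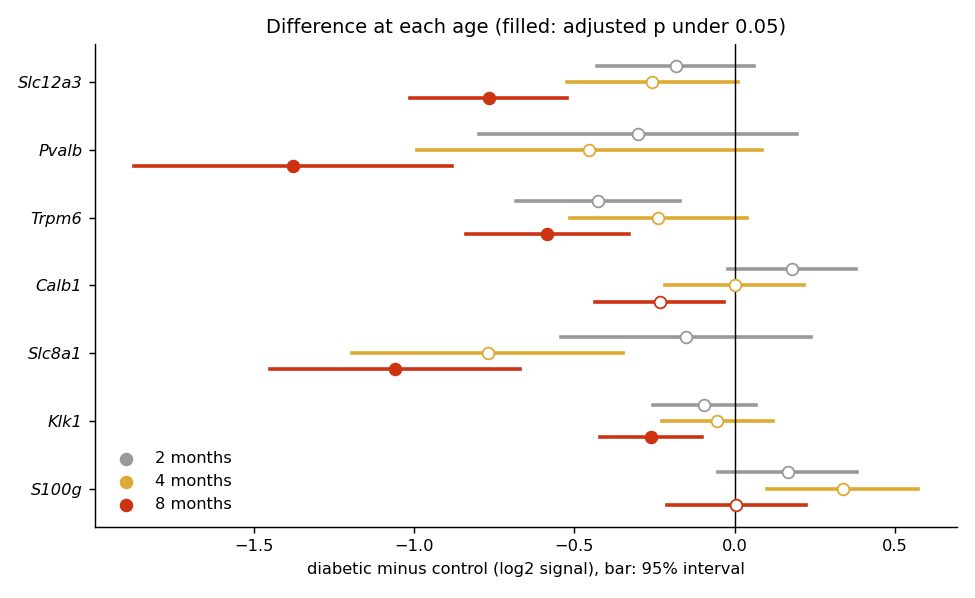
Diabetic minus control (log2, x axis) for the 7 genes (y axis) at 2, 4 and 8 months, with bars for 95% intervals and points filled where the adjusted p was under 0.05. The 8-month points of Slc12a3, Pvalb, Trpm6, Slc8a1 and Klk1 are filled and lie below 0, and none is filled at 2 or 4 months.

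Among the 6 diabetic kidneys at 8 months several genes were low on the same arrays. Arrays 3 and 5 had the lowest Slc12a3 (11.01 and 11.02), Pvalb (8.94 and 8.49), Slc8a1 (8.79 and 8.52) and Calb1 (12.68 and 12.67). Array 4 had the highest Slc12a3, Pvalb and Slc8a1, at 11.87, 10.49 and 9.61. Trpm6 was lowest on array 2, at 7.82, and S100g and Klk1 on array 3, at 9.74 and 13.64. Lcn2, a marker of tubular injury, read 9.74, 10.84, 11.67, 8.07, 10.71 and 10.31 on arrays 1 to 6, where the controls ran from 4.97 to 6.03. Havcr1, another injury marker, read 9.34, 10.57, 11.03, 8.21, 9.20 and 10.10, and the macrophage marker Cd68 read 7.54, 8.36, 9.23, 7.15, 7.53 and 7.59. All 3 were highest on array 3 and lowest on array 4, while on array 5 Havcr1 and Cd68 were the second lowest. Array 5 had the highest Arntl (7.81) and the lowest Dbp (7.32) of the 6. The parts of injury and of the clock genes in the differences between kidneys were not tested.

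**Figure D4:**
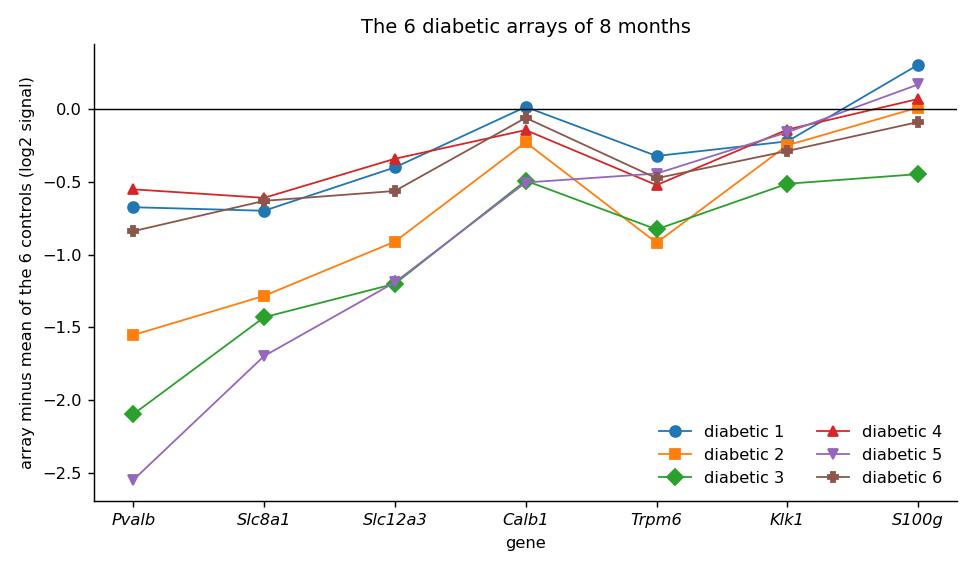
Log2 signal of each of the 6 diabetic arrays at 8 months minus the mean of the 6 controls (y axis) for the 7 members (x axis), 1 line per array. Arrays 3 and 5 have the lowest Pvalb, Slc8a1, Slc12a3 and Calb1, and array 4 the highest Pvalb, Slc8a1 and Slc12a3.

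Over all 35 arrays, the deviations from the group means were correlated for each of the 21 pairs of members (permutation of arrays within groups, adjusted over the pairs). Calb1 and Slc8a1 varied together most closely, with Pearson's r of 0.818 and Spearman's rho of 0.808 (permutation p = 1e-05, the smallest these permutations can give, and 2e-05, adjusted p = 0.00021 and 0.00042). Without the 2 arrays farthest in Calb1 r was 0.789, and within 2, 4 and 8 months it was 0.587, 0.953 and 0.885. Klk1 and S100g followed, with r of 0.794 and rho of 0.698 (adjusted permutation p = 0.00189 and 0.00472), r of 0.757 without the 2 farthest arrays, and 0.895, -0.154 and 0.752 within the ages. That relation did not hold at 4 months, and both genes were low on arrays 5 and 6 of both 2-month groups: without those 4 arrays r was 0.587 and rho 0.295 (adjusted permutation p = 0.166 and 0.356). Pvalb varied with Slc8a1 (r of 0.683, rho of 0.646, adjusted permutation p = 0.00189 and 0.00517) and with Calb1 (0.644 and 0.604, the same adjusted p), with r from 0.480 to 0.895 within the ages. Without the 2 arrays farthest in Pvalb these r were 0.603 and 0.552. Trpm6 varied with Slc8a1 (r of 0.593, rho of 0.607, adjusted permutation p = 0.0076 and 0.00517), with r of 0.504 without the 2 farthest arrays and 0.778, 0.562 and 0.428 within the ages. The sixth pair, Pvalb and Klk1 (r of 0.538, rho of 0.494, adjusted permutation p = 0.0205 and 0.0299), had r of 0.663 without the 2 farthest arrays but 0.941, 0.081 and 0.234 within the ages. Without 2-month arrays 5 and 6, on which both genes were low, its r was 0.210 (adjusted permutation p = 0.788). The other 15 pairs did not pass. The permutations within groups do not take account of the split of the 2-month arrays or of any pairing of same-numbered arrays at that age. Without 2-month arrays 5 and 6, Calb1 and Slc8a1 had r of 0.800 and rho of 0.786 (adjusted permutation p = 0.00126 and 0.00231), and Pvalb and Slc8a1 0.724 and 0.688 (0.00126 and 0.0112). Pvalb with Calb1 (r of 0.635, adjusted permutation p = 0.0217) and Trpm6 with Slc8a1 (0.562 and 0.0419) then passed by r but not by rho (0.0983 and 0.0631). Within 2-month arrays 1 to 4 alone, r was only 0.141 for Calb1 with Slc8a1 and was -0.375 for Pvalb with Calb1. On the same arrays it was 0.600 for Pvalb with Slc8a1 and 0.772 for Trpm6 with Slc8a1.

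No pair with Slc12a3 passed over all arrays. Without 2-month arrays 5 and 6 its r with Pvalb was 0.804 (adjusted permutation p = 0.0282), with rho of 0.5004 (0.111). Over all arrays of an age its r with Pvalb was -0.587, 0.097 and 0.901 at 2, 4 and 8 months, and with Slc8a1 0.000, -0.164 and 0.963. At 8 months all 21 pairs had r above 0.

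The genes whose deviations were most like each member's, by Pearson's r over the 35 arrays, were Uqcrc2 (0.758) and Ndufa10 (0.706) for Slc12a3, Rdh16f2 (0.907) and Cetn4 (0.890) for Pvalb, and Gtpbp10 (0.733) and Spopl (0.728) for Trpm6. For Calb1 they were Bola3 (0.822) and Slc8a1 (0.818), and for Slc8a1 Calb1 (0.818) and Abhd14a (0.814). For Klk1 they were Nudc (0.900) and Paip1 (0.890), and for S100g Iyd (0.845) and Ccs (0.843). Calb1 and Slc8a1 thus stood among each other's nearest genes of all those tested. These are descriptions with no test, since the arrays share their scaling.

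The rest of the pathway was read from 6 lists, of which 61 genes were tested. At 8 months 23 of them fell and 4 rose, 27 in all, where 16.8% of all genes were called and the median over all genes was -0.00. At 4 months 2 fell (Kcnj10 and Casr) and at 2 months 1 rose (Cyp27b1), but these early calls were lost under several alternatives. Leaving out diabetic array 3 brought the 8-month count to 17.

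**Figure D5:**
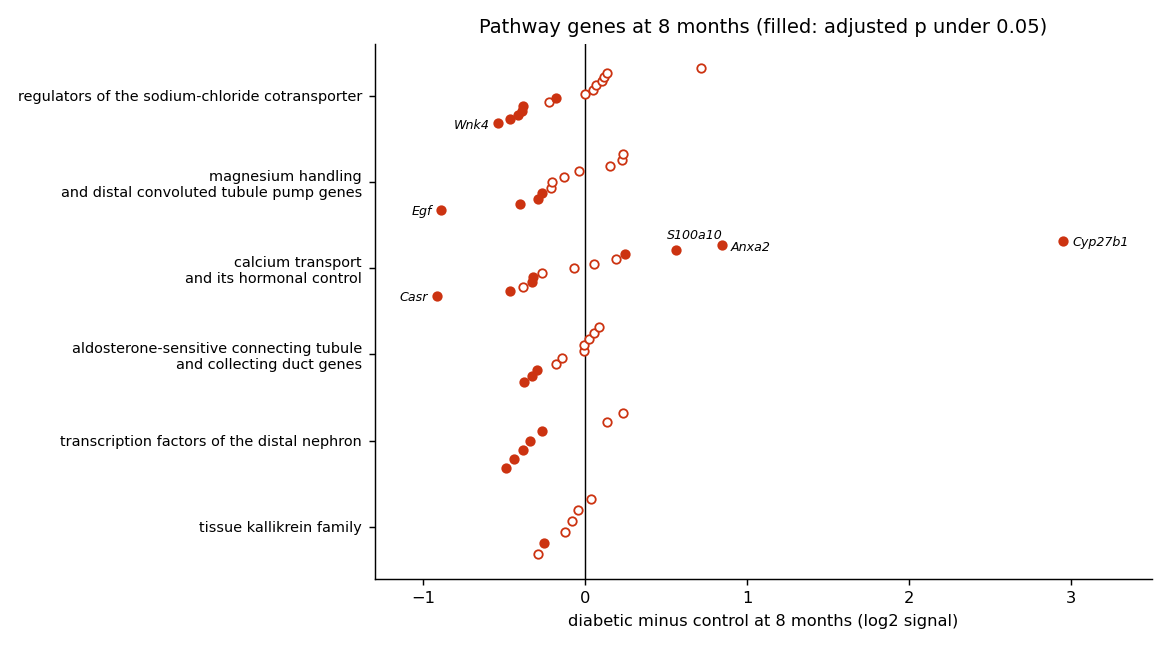
Difference at 8 months (log2, x axis) for each tested gene of the 6 lists, filled where the adjusted p was under 0.05. Cyp27b1 lies farthest above 0, at 2.95, and Casr and Egf farthest below, at -0.92 and -0.89.

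Of 14 tested regulators of the sodium-chloride cotransporter, 6 fell at 8 months and none rose, with a median of -0.09. Wnk4 and Wnk1, kinases at the head of the cascade that switches the cotransporter on, fell by 0.54 ± 0.09 and 0.38 ± 0.06. Wnk4 ran from 10.18 to 10.47 in controls and from 9.62 to 10.02 in diabetic kidneys, with no overlap. Kcnj10, the basolateral potassium channel that sets the cascade's activity, fell at 4 months by 0.41 ± 0.09 (adjusted p = 0.0132) and at 8 months by 0.39 ± 0.08. Its 4-month arrays were 8.52 to 8.65 in controls and 8.00 to 8.23 in diabetic kidneys, again with no overlap. The 4-month call was kept in 10 of 12 alternatives and lost without controls 3 and 4 (adjusted p = 0.215) and with a clock slope for each age (0.361). It was also lost without control 2, 3 or 4 alone (0.0595, 0.0577 and 0.056). Ppp1r1a, a phosphatase inhibitor, fell by 0.47 ± 0.10. Bsnd, the subunit of the basolateral chloride channels, fell by 0.41 ± 0.11, and Cab39l, an adaptor of the kinases below Wnk4, by 0.18 ± 0.06.

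Of 11 tested genes of magnesium handling, 4 fell and none rose, with a median of -0.21. Egf, whose product raises the activity of the Trpm6 channel, ran from 13.37 to 13.51 in controls and from 11.98 to 13.11 in diabetic kidneys, and fell by 0.89 ± 0.10. Egf is also made in the thick ascending limb. Cnnm2, a basolateral magnesium transport protein, fell by 0.40 ± 0.08. Kcna1, a potassium channel of the apical membrane, fell by 0.29 ± 0.10.

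Calcium transport and its hormonal control was the 1 list with genes called in both directions, 4 up and 4 down of 13, with a median of -0.07. Cyp27b1, which catalyses the last step to active vitamin D, mainly in the proximal tubule, ran from 5.67 to 7.20 in controls and from 7.39 to 10.31 in diabetic kidneys at 8 months. It rose by 2.95 ± 0.45, after a rise of 1.60 ± 0.45 at 2 months (adjusted p = 0.0446) at which the groups overlapped. The 2-month call was kept in 6 of 13 alternatives (adjusted p between 0.0309 and 0.193) and in 3 of the 12 fits without 1 array, those without diabetic array 2 or 3 or control 4. Without diabetic array 1 the rise was 1.26 (adjusted p = 0.115). Anxa2 rose by 0.84 ± 0.12; with S100a10 its product brings the calcium channels to the membrane, but both are made by many cell types. Casr, the calcium-sensing receptor, most abundant in the thick ascending limb, fell by 0.45 ± 0.12 at 4 months (adjusted p = 0.0498) and by 0.92 ± 0.11 at 8 months. The 4-month call of Casr was kept in 5 of 12 alternatives (adjusted p between 0.00196 and 1) and in 3 of the 11 fits without 1 array, those without diabetic array 1 or 6 or control 2. Without controls 3 and 4 the difference was -0.28. Its 8-month arrays ran from 8.53 to 8.86 in controls and from 7.34 to 7.93 in diabetic kidneys. Rab11a, which recycles the channels, rose by 0.24 ± 0.06.

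Of 10 tested aldosterone-sensitive genes 3 fell and none rose at 8 months, with a median of -0.08: Nr3c2, the mineralocorticoid receptor, by 0.38 ± 0.09, Kcnj1, the potassium secretory channel, by 0.33 ± 0.09, and Scnn1a, a subunit of the epithelial sodium channel, by 0.30 ± 0.08. Kcnj1 is also among the thick ascending limb markers given below, so its fall is counted in both lists. Of 7 transcription factors of the distal nephron, 5 fell and none rose, with a median of -0.34. Tfap2b, a member of the AP-2 family expressed in this segment, ran from 9.20 to 9.49 in controls and from 8.58 to 9.01 in diabetic kidneys and fell by 0.49 ± 0.11. Sall3 fell by 0.44 ± 0.10, Esrrg by 0.38 ± 0.12 and Pou3f3 by 0.34 ± 0.11. Of 6 tested kallikrein genes besides Klk1, Klk1b8 fell, by 0.26 ± 0.06, and none rose, with a median of -0.10.

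Markers of other kidney cells moved at 8 months too. Of the proximal tubule markers 4 of 6 fell (median -0.29), of the thick ascending limb markers 5 of 6 (median -0.31) and of the intercalated cell markers 3 of 6 (median -0.46). Their summed signals did not overlap between the groups. That of the proximal tubule was 35766 to 38016 in controls and 25763 to 34355 in diabetic kidneys, that of the thick limb 34043 to 35223 and 26388 to 30223, and that of intercalated cells 3878 to 4228 and 2728 to 3434. Of the principal cell markers Aqp2 and Aqp3 rose by 0.66 ± 0.18 and 0.49 ± 0.18, and Aqp4 fell by 0.72 ± 0.17. All 4 tested injury markers rose (median 2.51), with a summed signal of 723 to 878 in controls and 1783 to 9036 in diabetic kidneys. Of the macrophage markers 5 of 6 rose (median 1.29), with sums of 3260 to 3892 and 4687 to 12400. Of 4 tested fat markers 2 fell and none rose, with sums of 1348 to 4363 in controls and 2655 to 3973 in diabetic kidneys. The part of these cell types in the fall of the distal tubule genes was not tested.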

How the data were processed

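Total RNA of whole kidney was labelled with biotin and hybridised to Affymetrix arrays, 1 array per sample, per the labels' protocols. The values are log2 signals as deposited by the authors in the series matrix. Their scanner files were not analysed here, and the normalization is not given in the sources used here. Values of the 3 ages differ in centre, so comparisons stay within an age. The number of arrays limits the precision.

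Of 45101 probe sets, 34945 name 1 gene, 932 several, 9160 none and 64 are controls. Symbols come from GEO's platform annotation, and 34741 of them were matched in RefSeq's gene table (GRCm38.p6). Each of 18193 genes was represented by its brightest probe set over all arrays, and 13004 with a mean of at least 5.27, the 40th percentile, were tested. Means of the 6 groups were fitted with limma 3.58.1 in R 4.3.3 over 35 arrays, with Benjamini-Hochberg adjustment at 0.05. All probe sets naming 1 gene were fitted the same way. The script was tested on simulated data. Nothing says that samples came from separate animals in each case, so p-values measure the spread between these samples.

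Same-numbered arrays of an age share a number in the labels. Their deviations from the group means correlated at 0.246 to 0.444 at 2 months, above 0.1 in 6 of 6 pairs, so the numbers were taken to pair the samples there. At 4 and 8 months 1 of 4 and 2 of 6 pairs were above 0.1. The block is an alternative.

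The members and the 14 lists (124 genes) were chosen with earlier results of these data known. Named are all members, at most 4 called genes per pathway list by smallest p (1 such gene of the magnesium list is not reported here), markers beside a result, and for each member the 2 genes with the most similar deviations. A few further genes in the pathway lists were named after their values were seen. Promoter sequences are RefSeq's.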

Additional observations from a re-analysis of the deposited data

Results flagged for a closer look

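Calb1 read 12.53 on control array 5 at 2 months, apart from the nearest other control at 12.90. This was 1 of 42 groups of member values examined in this way, where chance alone flags about 1 in 20. The difference of Slc12a3 between diabetic and control kidneys changed by -0.58 ± 0.17 from 2 to 8 months (limma, adjusted p = 0.0468), the 1 member in which the change between these ages passed.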

How the results depend on the processing

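At 8 months the same count of 5 members fell under every alternative other than leaving out an array, where it was 4 to 5. At 2 months the count of 0 called members became 1 (Trpm6) with the filter at the 60th percentile (adjusted p = 0.0488), the replicate block (0.0261), the 2-month batch term (0.0401), array weights (0.00666) and a clock slope for each age, added after seeing the data (0.0484), and was 0 to 1 when 1 array was left out. At 4 months it became 2 with arrays of that age alone (Slc12a3, adjusted p = 0.0311, and S100g), with the batch term (Slc8a1, 0.0433, and S100g, 0.0273) and with array weights (0.0105 and 0.00506), 1 with the clock covariate (Slc8a1, 0.0403), and 0 to 1 without 1 array. Members whose effect differed between ages numbered 1 with the batch term, with 2-month arrays 1 to 4 alone and with array weights, and 0 to 2 without 1 array. The 8 minus 2 month difference of Slc12a3 was -0.58 without the filter (adjusted p = 0.0527) and without 4-month controls 3 and 4 (0.0570), -0.43 by the mean of probe sets (0.147), -0.38 with 2-month arrays 5 and 6 alone (0.326), -0.37 with a clock slope for each age (0.194), and -0.68 to -0.50 without 1 array. Differences that changed sign were all uncalled: by the mean of probe sets Slc12a3 at 2 and 4 months (0.045 and 0.080), Calb1 (0.10) and Klk1 (0.011) at 4 months. By this setting all probe sets of a gene, the dimmer ones too, have equal weight. Calb1 at 4 months was 0.021 and 0.022 after quantile normalization over all arrays and within ages, 0.021 with the replicate block and 0.026 with array weights, and S100g at 8 months was -0.021 and -0.020 under the 2 normalizations. With a clock slope for each age Klk1 was 0.025 and 0.0032 at 2 and 4 months and S100g -0.069 at 8 months. Without 1 array Calb1 at 4 months ran from -0.046 to 0.049 and S100g at 8 months from -0.056 to 0.094. The cause of these changes was not tested. Pathway genes called at 8 months numbered 20 to 33 across settings and 17 to 27 without 1 array. At 2 months they numbered 0 without the filter, by the mean of probe sets, with 1 age alone and with the clock covariate, 2 with the stricter filter, the replicate block and arrays 1 to 4, 3 with arrays 5 and 6, 4 with the batch term, 13 with array weights, and 0 to 2 without 1 array. At 4 months they numbered 0 without controls 3 and 4 and with the clock slope, 1 without the filter, by the mean of probe sets, under both normalizations and with the clock covariate, 9 with array weights, and 0 to 2 without 1 array. Over all genes, 330, 126 and 2187 were called at the 3 ages, against 553, 91 and 2651 with the replicate block, 696, 243 and 2799 with the batch term, 1296, 942 and 2724 with array weights, 64, 358 and 2370 with 1 age alone, and 695, 7 and 1890 with the clock slope. Of the 21 pairs of members 5 to 6 varied together in each setting tried, but not the same pairs: without 2-month arrays 5 and 6, 4 of the 6 remained and Slc12a3 with Pvalb was added. Other than Trpm6 at 2 months, the block changed the call of no member.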
